A study of Glycine max with 18 samples.

Results

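Soybean embryonic axes kept in 200 µM paclobutrazol (PBZ) were compared between 24 and 12 hours after imbibition (HAI). The members of this comparison were the 3 PBZ libraries at 24 HAI and the 3 PBZ libraries at 12 HAI, 6 of the 18 libraries of the series, chosen by their labels and not by any measured value. Of the 56044 genes in the deposited table, 31495 had a mean of at least 1 RPKM (a read count scaled by transcript length and by the mapped reads of the library) at 24 or at 12 HAI and were tested. The series covers cultivar BRS-284 germinated in water with 200 µM PBZ or in water alone, with 3 biological replicates per condition at 12, 24 and 36 HAI. Seeds were held at 28 °C with a 12 h photoperiod, and each sample pooled axes cut from the cotyledons of seeds from 3 plates of 20 seeds. All seeds of the 6 libraries were of 1 cultivar. PBZ and temperature were shared by both groups, and time was the only labelled difference. The question was what the axis transcriptome did over this interval while GA synthesis was inhibited, and the control libraries of the same times, 3 at 24 HAI and 3 at 12 HAI, were used to see whether the step differed without PBZ.

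Gibberellin (GA) promotes germination in part by releasing growth from DELLA proteins, nuclear repressors that are degraded once the GA receptor GID1 binds the hormone. PBZ blocks ent-kaurene oxidase, an early enzyme of GA synthesis. During imbibition an axis leaves the dry state: transcripts stored at seed maturation, among them late embryogenesis abundant (LEA) proteins that protect dry cells, oleosins that coat oil bodies and small heat shock proteins, are normally lost, while genes for cell wall loosening, cell division and hormone response come into use.

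Values are RPKM. Log2 changes were computed as 24 minus 12 HAI on the log2(RPKM + 0.1) scale, which understates the change of a lowly expressed gene, and are given ± SE. Genes were tested with limma over all 31495 genes, and a gene was said to rise or fall when it passed both limits, a Benjamini-Hochberg adjusted p no greater than 0.05 and a log2 change of 1 or more in size. Every gene description was taken from the supplementary annotation of the study, which covered 1757 genes, 1480 of them tested. Of those tested, 474 were described because the study had called them between PBZ and control in these same libraries. Most gene groups below therefore hold genes that the study picked with these samples, and their counts are not independent evidence of a direction. In axis samples, fewer cells of a type and less RNA per cell cannot be told apart.

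The 6 libraries were sequenced to unequal depth. Relative to PBZ 12 HAI replicate 1, depth read from the smallest RPKM steps was 0.774 to 1.29 at 24 HAI and 1 to 1.83 at 12 HAI. Between 29727 and 30421 genes reached 1 RPKM in a 24 HAI library, and between 28460 and 28646 in a 12 HAI library. Replicates correlated across genes with Pearson's r of 0.964 to 0.991 at 24 HAI and 0.926 to 0.977 at 12 HAI, and the median SD of log2 values per gene was 0.15 at 24 HAI and 0.24 at 12 HAI. An RPKM of exactly 0 was not always a low value. A value of 0 stood beside one of at least 5 RPKM within the same group in 50 genes at 24 HAI and in 80 genes at 12 HAI, so a gene listed at 0 is given below as its value in each library. Markers of the axis were present. A KNOTTED1-like homeobox gene of the meristem class (Glyma.01G028300) had 3.78, 4.37 and 5.54 RPKM at 24 HAI, against 4.44, 4.48 and 5.74 RPKM at 12 HAI. AINTEGUMENTA-like 6 (Glyma.01G022500), an AP2-type factor of growing tissue in Arabidopsis, had 11.3, 8.15 and 7.70 RPKM at 24 HAI, against 19.3, 21.5 and 19.5 RPKM at 12 HAI, a fall of log2 -1.16 ± 0.16. Both genes were described after their values were seen.

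Over this interval 8384 of the 31495 genes passed both limits, 26.6% of those tested. Rises numbered 5389 (17.1%) and falls 2995 (9.51%), so 64.3% of the calls were higher at 24 HAI. These shares are the background for the gene groups below, whose counts are descriptions of few genes. The change of the median gene was 0.07. Rises of at least 2 on the log2 scale numbered 2000 and falls of that size 777, and 181 rises and 78 falls reached 4. The median of the genes that rose was 5.65 RPKM at 24 HAI, against 1.498 RPKM at 12 HAI. That of the genes that fell was 3.55 RPKM at 24 HAI, against 10.99 RPKM at 12 HAI. A gene could be tested through 1 of the times alone, so these levels follow in part from the filter and from sorting by direction. A mean under 1 RPKM at 12 HAI was found for 2156 of the rises, and a mean under 1 RPKM at 24 HAI for 684 of the falls. The groups of 3 did not overlap in 8301 of the 8384 called genes, beside 64.2% of all genes tested. Across the 20 chromosomes, 24.4% to 28.4% of the tested genes were called.

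**Figure D1:**
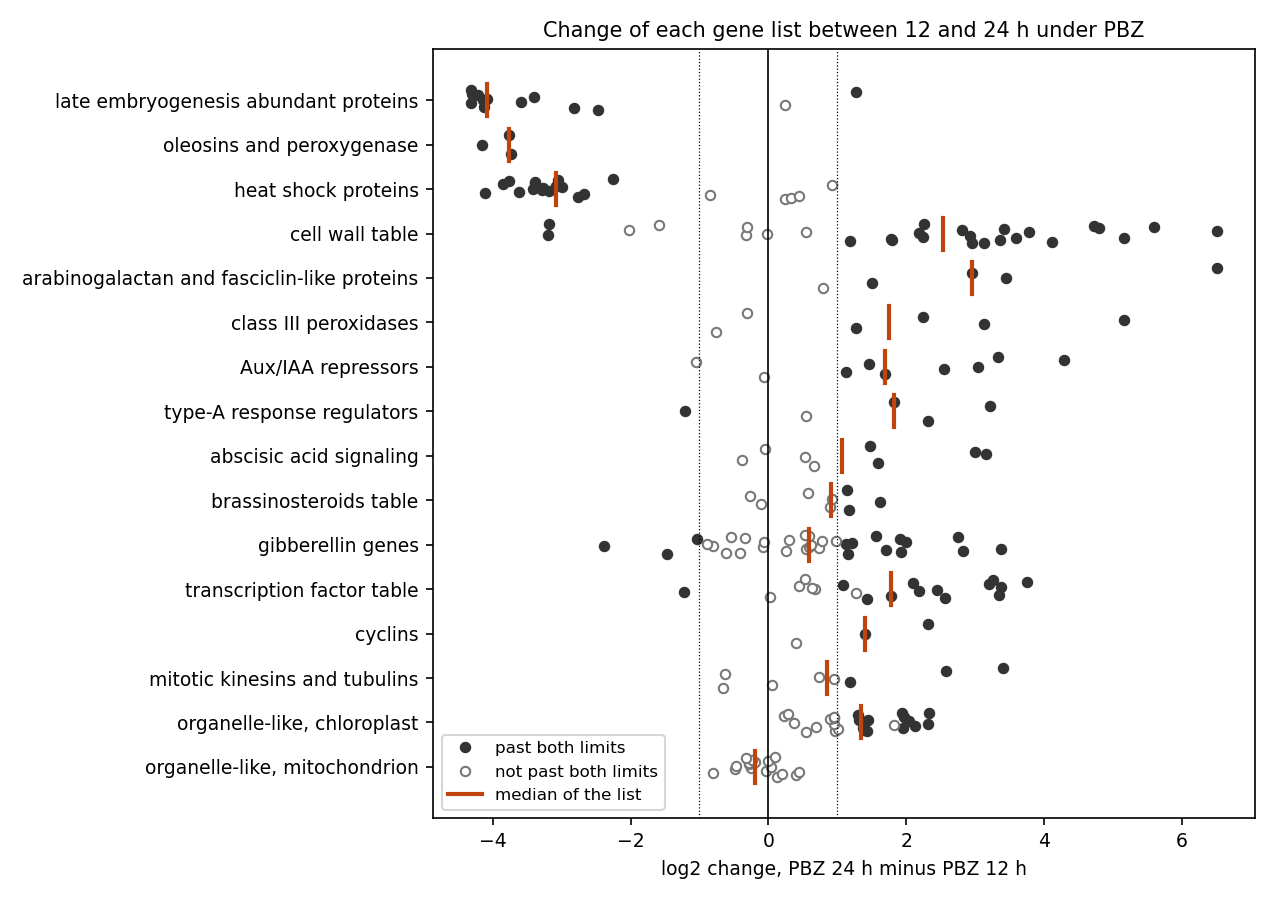
Log2 change (24 minus 12 HAI, PBZ axes) of each tested gene in 16 gene groups. Each point is 1 gene, filled where it passed both limits and open where it did not, dotted lines mark a change of 1 in either direction and red bars mark group medians. LEA (median -4.09), oleosin (-3.76) and heat shock (-3.09) genes lie to the left, and cell wall (2.54), Aux/IAA (1.69) and transcription factor (1.79) genes mostly to the right.

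LEA transcripts fell most as a group. Of 14 listed genes 13 were tested, 11 fell and 1 rose, with a median change of -4.09 beside 0.07 over all genes. The study had called 12 of these 13 between PBZ and control. Glyma.20G147600, described as a seed maturation protein, had 16.9, 10.1 and 3.94 RPKM at 24 HAI, against 188, 177 and 168 RPKM at 12 HAI. That is a fall of 17.3-fold between the group means and of log2 -4.32 ± 0.45 (limma adjusted p = 0.00035). The dehydrin Glyma.07G090400, of a family that binds membranes and proteins in drying cells, had 20.8, 8.76 and 3.94 RPKM at 24 HAI, against 176, 190 and 175 RPKM at 12 HAI (log2 -4.31 ± 0.51, limma adjusted p = 0.00052). In both genes the highest library at 24 HAI was far below the lowest at 12 HAI. The strongest LEA gene in RPKM, Glyma.16G031300, kept 102, 43.5 and 17.8 RPKM at 24 HAI, against 883, 722 and 799 RPKM at 12 HAI (log2 -4.21 ± 0.54). A second strong dehydrin, Glyma.09G185500, had 103, 42.0 and 46.0 RPKM at 24 HAI, against 699, 807 and 614 RPKM at 12 HAI (log2 -3.59 ± 0.33). Both were thus still above 10 RPKM in every library at 24 HAI. Another LEA gene among the 12 largest described falls, Glyma.17G040800, had 26.1, 11.4 and 5.49 RPKM at 24 HAI, against 220, 282 and 212 RPKM at 12 HAI.

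The exceptions were the members described as hydroxyproline-rich LEA proteins, a class whose name covers membrane proteins related to NDR1 and HIN1 of plant defence. Glyma.19G198900 (NDR1/HIN1-like 1) rose, with 4.24, 8.95 and 11.4 RPKM at 24 HAI, against 2.95, 3.56 and 2.80 RPKM at 12 HAI (log2 1.27 ± 0.34, limma adjusted p = 0.015). This call was lost without PBZ 24 HAI replicate 2 (1.15) or 3 (0.98). Glyma.07G087000 did not pass, at 0.25 ± 0.34.

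EM-like proteins, small hydrophilic proteins of the mature embryo that are grouped with LEA proteins by function, were outside the list because their description reads stress induced protein. The pair described as EM-like GEA6 was among the 12 largest described falls. Glyma.03G056000 was the more abundant, with 180, 81.2 and 50.5 RPKM at 24 HAI, against 1827, 2142 and 2030 RPKM at 12 HAI, a fall of 19.2-fold between the means (log2 -4.46 ± 0.42, limma adjusted p = 0.00026). Glyma.01G119600 had 43.7, 23.4 and 10.8 RPKM at 24 HAI, against 513, 528 and 455 RPKM at 12 HAI (log2 -4.48 ± 0.44). A defensin-like gene, Glyma.05G198000, of a family of small cysteine-rich peptides, had 31.8, 7.81 and 5.63 RPKM at 24 HAI, against 337, 205 and 289 RPKM at 12 HAI (log2 -4.59 ± 0.58).

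Oil body genes fell together with them. The group held 2 oleosins and 1 peroxygenase, an oil body enzyme that oxidises fatty acids with hydroperoxides, and all 3 fell, with a median of -3.76. The oleosin Glyma.05G004300 had 20.8, 9.05 and 5.11 RPKM at 24 HAI, against 137, 162 and 105 RPKM at 12 HAI (log2 -3.74 ± 0.45). The oleosin Glyma.16G071800 had 23.4, 9.28 and 9.10 RPKM at 24 HAI, against 174, 203 and 143 RPKM at 12 HAI (log2 -3.76 ± 0.35). The peroxygenase Glyma.10G189900 had 42.8, 18.6 and 16.8 RPKM at 24 HAI, against 471, 420 and 386 RPKM at 12 HAI (log2 -4.15 ± 0.33). The study had called all of these too. The 1 storage globulin type gene that was tested, the cupin Glyma.01G177000, was weak and fell to 0.557, 0.144 and 0.395 RPKM at 24 HAI, against 1.73, 2.45 and 2.86 RPKM at 12 HAI (log2 -2.48 ± 0.42). Storage globulin and oleosin genes are also used by cotyledon cells. The oleosin group took 0.0138%, 0.00586% and 0.00493% of the summed RPKM of the 24 HAI libraries, against 0.121%, 0.135% and 0.102% at 12 HAI, and the part of other tissue in this fall was not tested.

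Small heat shock proteins, chaperones that hold unfolded proteins and accumulate in maturing seeds, fell without exception: 15 of 15 tested, with a median of -3.28. The study had called all 15 of them between PBZ and control. The largest fall was that of Glyma.07G043600, with 7.12, 2.80 and 2.04 RPKM at 24 HAI, against 85.1, 42.8 and 63.4 RPKM at 12 HAI (log2 -4.12 ± 0.45, limma adjusted p = 0.00039). The most abundant, Glyma.14G063700, had 79.8, 32.6 and 15.4 RPKM at 24 HAI, against 565, 471 and 459 RPKM at 12 HAI (log2 -3.85 ± 0.51). Glyma.16G012000 had 4.94, 2.97 and 1.82 RPKM at 24 HAI, against 61.6, 32.01 and 37.7 RPKM at 12 HAI (log2 -3.77 ± 0.37). The smallest fall among the 15 was -2.25. Of the 6 larger chaperones only the HSP70 type Glyma.02G205600 fell, with 29.8, 18.9 and 18.7 RPKM at 24 HAI, against 122, 180 and 126 RPKM at 12 HAI (log2 -2.68 ± 0.23). The HSP90 type Glyma.01G068000, a chaperone that dividing and growing cells also use, had 48.3, 57.8 and 52.7 RPKM at 24 HAI, against 39.8, 42.1 and 44.3 RPKM at 12 HAI, a change of 0.33 ± 0.11 under the size limit. None of the 5 larger chaperones other than Glyma.02G205600 passed, and their changes lay between -0.85 and 0.92.

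**Figure D2:**
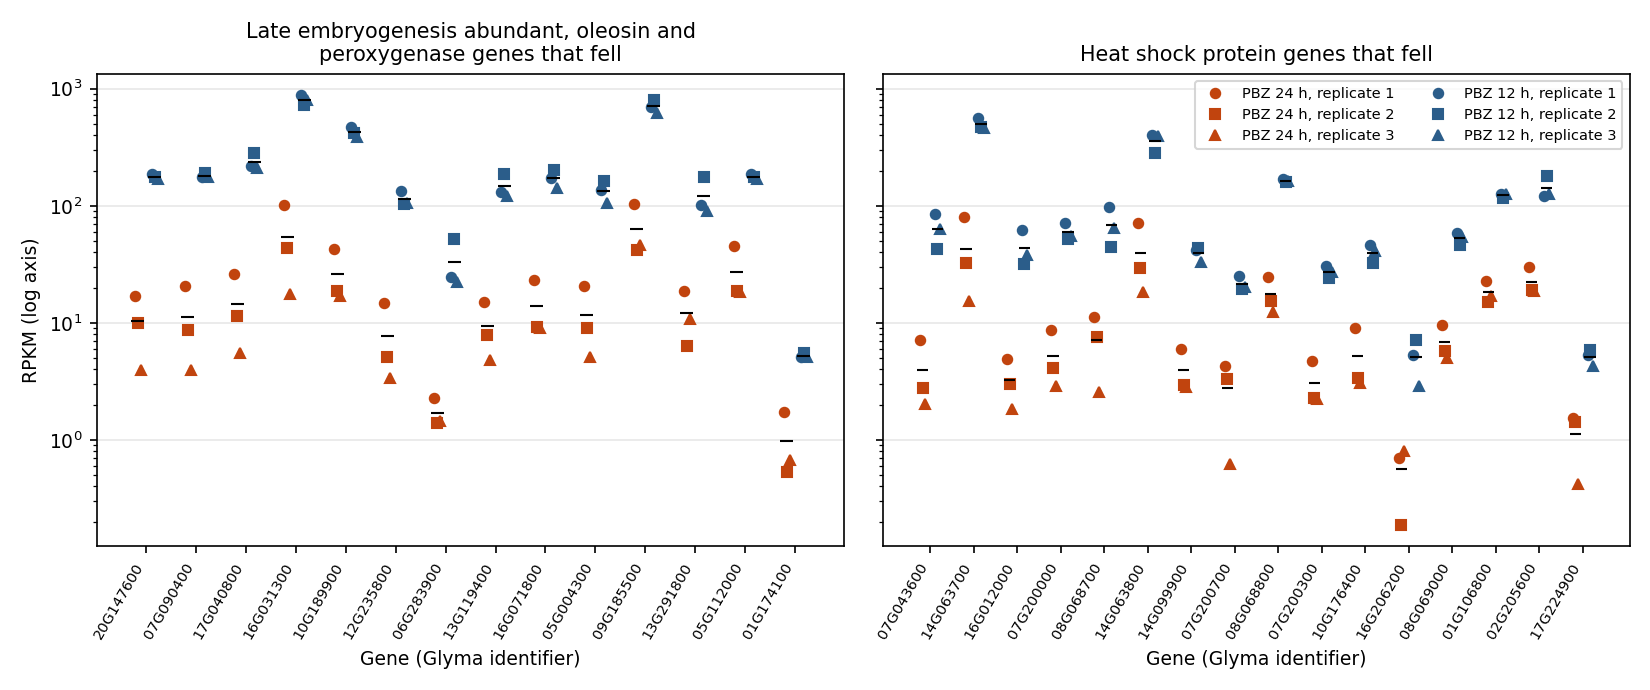
RPKM (log axis) of the LEA, oleosin and peroxygenase genes that fell (left) and of the heat shock protein genes that fell (right) in each of the 6 PBZ libraries. Orange symbols are the 24 HAI libraries and blue symbols the 12 HAI libraries, their shapes mark the replicate and black bars mark group means. All values at 24 HAI lie below all values at 12 HAI for each gene, and replicate 1 (circles) is the highest of the 24 HAI libraries in all but 1 of them.

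The 3 libraries at 24 HAI did not stand equally far from 12 HAI. Replicate 1 was the nearest of them to the 12 HAI libraries in 4120 of the 5389 rises (76.5%) and in 2246 of the 2995 falls (75.0%). It was the highest of the 24 HAI libraries in 11 of 11 falling LEA genes, in 3 of 3 oil body genes and in 15 of 16 falling heat shock genes, and the lowest in 16 of the 20 rising cell wall genes. The LEA list took 0.0601% of summed RPKM in replicate 1 and 0.0275% and 0.0224% in the other 24 HAI libraries, against 0.426%, 0.496% and 0.400% at 12 HAI. Replicate 1 was still far below every 12 HAI library in this share. Without it 9061 genes passed, LEA counts were again 11 down and 1 up with a median of -4.34, and 16 heat shock genes again fell while 1 rose.

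The cell wall genes were taken from a table of 44 genes that the study called between PBZ and control. Of these, 28 were tested, 20 rose and 2 fell, with a median change of 2.54. The largest rise was that of Glyma.12G207600, a fasciclin-like arabinogalactan protein of the FLA9 type, one of a family of glycoproteins at the cell surface. It had 11.1, 17.98 and 21.5 RPKM at 24 HAI, against 0, 0.235 and 0.0685 RPKM at 12 HAI (log2 6.52 ± 0.46, limma adjusted p = 0.00016). The beta-glucosidase Glyma.15G271000, of a family that frees glucose from glycosides, had 13.3, 38.8 and 49.7 RPKM at 24 HAI, against 0.275, 0.923 and 0.489 RPKM at 12 HAI (log2 5.60 ± 0.54). All 3 beta-glucosidases of the table rose, and the 24 HAI libraries of this one differed among themselves by more than those at 12 HAI in RPKM. XTH32 (Glyma.03G184500), a xyloglucan endotransglucosylase/hydrolase that cuts and rejoins the xyloglucan tethers of the wall, had 24.7, 36.3 and 31.9 RPKM at 24 HAI, against 1.06, 1.52 and 2.80 RPKM at 12 HAI (log2 4.12 ± 0.32). The acid invertase type Glyma.17G138500, which splits sucrose, had 17.6, 24.96 and 23.05 RPKM at 24 HAI, against 0.596, 1.17 and 0.528 RPKM at 12 HAI (log2 4.73 ± 0.28).

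Wall proteins and wall enzymes were also counted by family over genes of that table and genes outside it. Of 5 arabinogalactan and fasciclin-like genes tested 4 rose, with a median of 2.96. AGP14 (Glyma.02G072400) had 83.7, 103 and 94.6 RPKM at 24 HAI, against 10.1, 14.6 and 11.5 RPKM at 12 HAI (log2 2.96 ± 0.16), and AGP18 (Glyma.01G190900) had 30.2, 43.5 and 45.1 RPKM at 24 HAI, against 1.92, 5.12 and 4.24 RPKM at 12 HAI (log2 3.45 ± 0.35). AGP14 is in the table and AGP18 was not among the study's calls. Of the 3 such genes of the family that were tested 2 rose. Expansins loosen the wall without cutting it. Of 6 listed 2 were tested, and both rose. The more abundant, expansin A1 (Glyma.01G050100), had 42.03, 45.02 and 40.05 RPKM at 24 HAI, against 21.00, 15.23 and 18.01 RPKM at 12 HAI (log2 1.23 ± 0.14). Expansin 12 (Glyma.12G150900) was close to absent at the start, with 1.456, 2.097 and 1.203 RPKM at 24 HAI, against 0, 0 and 0.0684 RPKM at 12 HAI (log2 3.79 ± 0.48). It reached the expression limit only at 24 HAI, so its direction followed in part from the filter. Of 6 class III peroxidases, which act on wall phenolics, 4 rose. The largest rise among them was in Glyma.06G275900, with 1.84, 6.96 and 6.12 RPKM at 24 HAI, against 0, 0.0197 and 0.0571 RPKM at 12 HAI (log2 5.16 ± 0.54), followed by Glyma.03G007700 (3.13 ± 0.23) and Glyma.08G162700 (2.24 ± 0.66). Expansin 12 and these 3 peroxidases are in the table. The call of Glyma.08G162700 was lost without PBZ 24 HAI replicate 2, at 2.17, and without PBZ 24 HAI replicate 3 the gene was under the expression limit.

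Pectin genes went both ways. Of 4 tested, 3 rose, with changes of 2.51 ± 0.20 for the BURP-domain polygalacturonase type Glyma.01G030900, 1.80 ± 0.46 for the pectin lyase type Glyma.05G044000 and 1.05 for a pectinesterase type, Glyma.01G006800. Another pectinesterase type, Glyma.01G209500, fell to 1.97, 2.29 and 1.47 RPKM at 24 HAI, against 5.49, 7.44 and 5.85 RPKM at 12 HAI (log2 -1.67 ± 0.21). The call of Glyma.05G044000 was lost without PBZ 24 HAI replicate 2 (1.52) and without replicate 3 (1.61), and that of Glyma.01G006800 without PBZ 24 HAI replicate 1 (0.97) or PBZ 12 HAI replicate 1 (0.95). The cellulose synthase-like gene Glyma.01G014000 did not pass, at 0.47 ± 0.27. Among aquaporins, the water channels of plant membranes, the tonoplast protein TIP2;3 (Glyma.01G208200) rose, with 150, 176 and 143 RPKM at 24 HAI, against 56.9, 61.4 and 73.1 RPKM at 12 HAI (log2 1.30 ± 0.14). The plasma membrane type Glyma.11G146500 fell to 0.238, 0.213 and 0.251 RPKM at 24 HAI, against 7.49, 0.629 and 5.11 RPKM at 12 HAI (log2 -3.20 ± 0.80). Its 12 HAI values were far apart, and so were those of the other cell wall gene that fell, the proline-rich protein Glyma.20G203800, at 3.66, 1.85 and 0.114 RPKM. Its call was lost in 5 of the 6 fits that left out 1 library: it was under the expression limit without PBZ 12 HAI replicate 1, had changes of -2.82 to -3.31 in the others that lost it, and held without PBZ 12 HAI replicate 3.

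**Figure D3:**
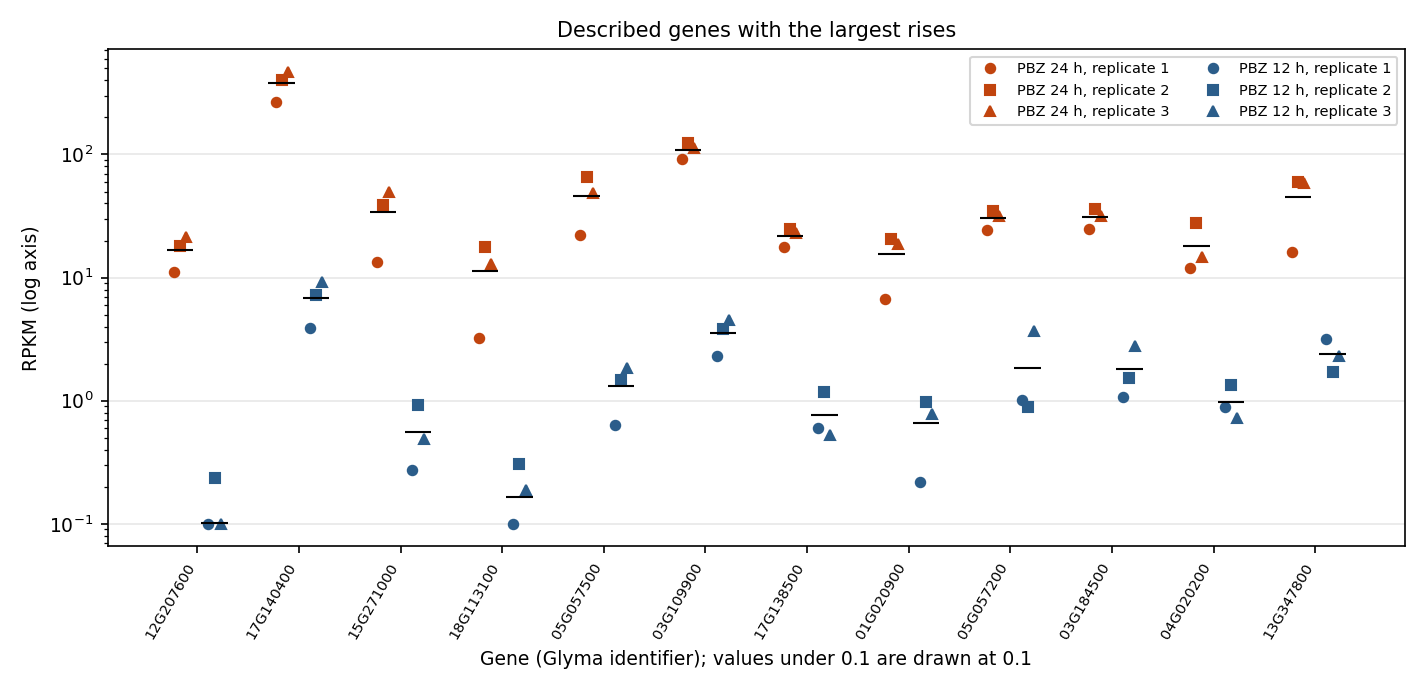
RPKM (log axis, values under 0.1 drawn at 0.1) of the 12 described genes with the largest rises between 12 and 24 HAI in PBZ axes. Orange symbols are the 24 HAI libraries and blue symbols the 12 HAI libraries, shapes mark the replicate and black bars mark group means. Every 24 HAI value lies above every 12 HAI value, which the naming rule required. The gap is widest for the FLA9 type gene (16.9 RPKM on average at 24 HAI, against 0.101 RPKM at 12 HAI).

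The other large described rises belonged to lipid transfer, phenolic and oxylipin genes. The strongest in RPKM was Glyma.17G140400, a lipid-transfer protein type of the family that carries lipids to the plant surface, with 269, 400 and 469 RPKM at 24 HAI, against 3.90, 7.22 and 9.19 RPKM at 12 HAI. This was a rise of 55.997-fold between the means (log2 5.83 ± 0.33, limma adjusted p = 0.00012). Others of the same type also rose, Glyma.05G057500 with 22.3, 65.7 and 48.6 RPKM at 24 HAI, against 0.631, 1.46 and 1.84 RPKM at 12 HAI (log2 4.996 ± 0.47), and Glyma.05G057200 by 4.23 ± 0.48. Uclacyanin 1 (Glyma.03G109900), a blue copper protein of the cell surface, had the smallest SE among the 12 largest described rises, with 92.4, 123 and 112 RPKM at 24 HAI, against 2.31, 3.79 and 4.52 RPKM at 12 HAI (log2 4.95 ± 0.24, limma adjusted p = 0.0001). Spermidine hydroxycinnamoyl transferase (Glyma.18G113100), which joins phenolic acids to a polyamine, had 3.22, 17.7 and 13.001 RPKM at 24 HAI, against 0, 0.304 and 0.189 RPKM at 12 HAI (log2 5.34 ± 0.73). A cinnamyl-alcohol dehydrogenase type of phenolic metabolism (Glyma.01G020900) had 6.74, 20.8 and 18.8 RPKM at 24 HAI, against 0.217, 0.968 and 0.785 RPKM at 12 HAI (log2 4.38 ± 0.56). The ornithine decarboxylase type Glyma.04G020200, of polyamine synthesis, rose by 4.01 ± 0.34.

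Lipoxygenases oxidise polyunsaturated fatty acids, and 2 of 3 tested rose. Glyma.13G347800, a 9S type, had 16.2, 59.6 and 58.4 RPKM at 24 HAI, against 3.15, 1.72 and 2.30 RPKM at 12 HAI (log2 3.99 ± 0.49). Glyma.07G006900 had 0.795, 2.90 and 2.19 RPKM at 24 HAI, against 0.174, 0.145 and 0.0854 RPKM at 12 HAI (log2 2.98 ± 0.52), and Glyma.07G034800 missed the adjusted limit at 1.65 (limma adjusted p = 0.052). Replicate 1 was the lowest 24 HAI library in all of these genes. Among 10 glutathione S-transferases, enzymes of detoxification, 4 rose and 2 fell, with a median of 0.22. The largest rise was that of Glyma.01G040200 (2.99 ± 0.58), the more abundant Glyma.15G252200 had 33.5, 34.6 and 37.4 RPKM at 24 HAI, against 10.7, 12.7 and 14.3 RPKM at 12 HAI, and Glyma.01G142800 rose by 1.42 ± 0.45. The last call was lost without any 1 of 4 libraries, the largest shift being to 0.96 without PBZ 12 HAI replicate 2, and held without PBZ 12 HAI replicates 1 or 3. Of 3 protease inhibitors, the Bowman-Birk type Glyma.16G208900 fell by 2.61 on the log2 scale, the Kunitz type Glyma.16G212100 rose by 1.67 and the other did not pass. No amylase passed among 3 tested, nor did the 1 beta-oxidation gene tested, acyl-CoA oxidase 1 (Glyma.01G207500, 0.76 ± 0.14).

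Cell division genes were few in the annotation. Cyclins drive the phases of the cell cycle, and 2 of 3 tested rose. The D-type cyclin CYCD1;1 (Glyma.01G035600), of the class that starts the cycle, had 3.10, 4.03 and 4.16 RPKM at 24 HAI, against 1.29, 1.02 and 1.84 RPKM at 12 HAI (log2 1.40 ± 0.25). The mitotic cyclin CYCB2;3 (Glyma.01G159700) had 0.735, 1.88 and 1.29 RPKM at 24 HAI, against 0.314, 0.0833 and 0.141 RPKM at 12 HAI (log2 2.32 ± 0.50), low in all 6 libraries. The gene for DNA polymerase alpha subunit A (Glyma.01G187400) had 12.1, 15.1 and 13.7 RPKM at 24 HAI, against 4.25, 5.41 and 5.21 RPKM at 12 HAI (log2 1.44 ± 0.15). Of 8 tubulin and kinesin genes 3 rose, all of them tubulins, beside 17.1% of all genes tested. Beta-6 tubulin (Glyma.08G014200) had 14.4, 12.4 and 12.0 RPKM at 24 HAI, against 1.33, 0.868 and 1.24 RPKM at 12 HAI (log2 3.41 ± 0.19), alpha-2 tubulin (Glyma.01G197500) rose by 2.58 ± 0.28 and beta-3 tubulin (Glyma.01G109300) by 1.19 ± 0.16. None of the 3 histone genes passed. The most abundant, an H2A gene (Glyma.01G022100), had 165, 167 and 128 RPKM at 24 HAI, against 113, 60.5 and 110 RPKM at 12 HAI.

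Auxin response was marked by the Aux/IAA genes, whose products repress auxin responses and are themselves early auxin-induced genes in Arabidopsis. Of 9 tested 7 rose, with a median of 1.69, and 6 of the 9 had been called by the study. IAA19 (Glyma.15G012800) had 2.86, 4.11 and 4.39 RPKM at 24 HAI, against 0.0699, 0.218 and 0.0378 RPKM at 12 HAI (log2 4.29 ± 0.40, limma adjusted p = 0.00027). The IAA14 gene Glyma.19G161100 had 4.74, 6.07 and 6.01 RPKM at 24 HAI, against 0.959, 0.165 and 0.541 RPKM at 12 HAI (log2 3.33 ± 0.47), and its relative Glyma.03G158700 rose by 3.05 ± 0.47. The genes that were already strong moved less. IAA9 (Glyma.01G098000) had 76.9, 88.1 and 84.7 RPKM at 24 HAI, against 37.01, 34.1 and 43.7 RPKM at 12 HAI (log2 1.13 ± 0.13). IAA32 (Glyma.10G270500) did not pass, at -1.05 ± 0.68. Replicate 1 was the lowest 24 HAI library in all 9 genes. Of 3 SAUR genes, short-lived auxin-induced proteins of growing organs, Glyma.04G025500 rose by 1.08 ± 0.28, a call that was lost without PBZ 24 HAI replicate 2 (0.85) and without PBZ 12 HAI replicate 1 (0.96) or 2 (0.97). The study's table of auxin genes had 10 tested members, of which 5 rose and 2 fell. SUR2 (Glyma.01G078300), a cytochrome P450 that limits auxin synthesis in Arabidopsis, was one that fell and was listed at 0 in all 24 HAI libraries, against 6.9996, 0.307 and 0.998 RPKM at 12 HAI. Without PBZ 12 HAI replicate 1 it was under the expression limit, and the table then had 7 tested members, of which 4 rose and 0 fell. With a pseudocount of 1 in place of 0.1 the table had 3 rises and 0 falls.

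Type-A response regulators are induced by cytokinin and dampen its signal. Of 5 tested 3 rose, all of them RR3 genes, and 1 fell. Glyma.08G292400 rose by 3.22 ± 0.70, Glyma.18G130900 by 1.83 ± 0.27, and Glyma.01G037500 had 2.62, 3.95 and 2.59 RPKM at 24 HAI, against 0.515, 0.576 and 0.479 RPKM at 12 HAI (log2 2.32 ± 0.26). RR17 (Glyma.06G142300) fell to 1.20, 0.873 and 0.743 RPKM at 24 HAI, against 3.69, 1.79 and 1.72 RPKM at 12 HAI (log2 -1.21 ± 0.34). Its call was lost with a pseudocount of 1 (-0.77), without PBZ 12 HAI replicate 1 (-0.86) and without PBZ 24 HAI replicate 2 (-1.17) or 3 (-1.07).

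Abscisic acid (ABA) opposes GA in seeds. Of 8 ABA genes tested 4 rose, beside 17.1% of all genes tested. The study had called 4 of the 8, and of the 4 that it had not called 1 rose. NCED3 (Glyma.08G176300), the enzyme of the regulated step of ABA synthesis, had 1.05, 2.45 and 2.94 RPKM at 24 HAI, against 0.0337, 0.569 and 0.0384 RPKM at 12 HAI (log2 3.17 ± 0.71, limma adjusted p = 0.0075). HAB1 (Glyma.09G066500), a phosphatase that blocks ABA signalling, had 1.70, 3.29 and 3.28 RPKM at 24 HAI, against 0.232, 0.211 and 0.290 RPKM at 12 HAI (log2 3.00 ± 0.34), and a PYL1-related receptor gene (Glyma.01G097000) rose by 1.59 ± 0.13. Genes for the synthesis, the import and the repression of the signal were thus among the rises: the transporter ABCG40 (Glyma.19G169400) had 6.19, 5.92 and 6.67 RPKM at 24 HAI, against 0.836, 1.92 and 1.13 RPKM at 12 HAI (log2 2.26 ± 0.28). PYL5 (Glyma.11G233300), a receptor, did not pass at -0.04 ± 0.26. JAZ proteins repress jasmonate responses, and 2 of 3 genes rose, JAZ1 (Glyma.11G038600) by 2.97 ± 0.57 and Glyma.01G204400 by 1.87 ± 0.54. The call of Glyma.01G204400 was lost without PBZ 24 HAI replicate 2 (1.70) or 3 (1.48) and without PBZ 12 HAI replicate 1 (1.69) or 3 (1.80).

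Brassinosteroids promote growth together with GA. The study's table of brassinosteroid genes had 8 tested members, of which 3 rose and none fell, with a median of 0.91. Over all genes tested, 17.1% rose. DWF4 (Glyma.11G067700), a rate-limiting hydroxylase of brassinosteroid synthesis in Arabidopsis, had 7.20, 11.1 and 9.05 RPKM at 24 HAI, against 2.09, 3.83 and 2.87 RPKM at 12 HAI (log2 1.62 ± 0.25). Its relative Glyma.01G175500 rose by 1.18 ± 0.38. BR6OX2 (Glyma.19G033900), which makes the final active hormone, had 20.6, 15.6 and 15.0 RPKM at 24 HAI, against 7.51, 5.69 and 10.3 RPKM at 12 HAI (log2 1.14 ± 0.23). The call of Glyma.01G175500 was lost without PBZ 24 HAI replicate 2 (1.12) or 3 (1.03) and without PBZ 12 HAI replicate 1 (0.74), and that of BR6OX2 fell just short without PBZ 24 HAI replicate 1 and was lost without PBZ 12 HAI replicate 2 (0.93). The 3 ethylene synthesis genes of the annotation were below the expression limit in both groups.

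The GA pathway was described over a table of 40 genes that the study assembled by family, of which 32 were tested, 11 rose and 3 fell, with a median of 0.59. Over all genes tested, 17.1% rose and 9.51% fell. Only 3 of the 32 had been called by the study. At the entry to the pathway, the CPS gene Glyma.03G154700, encoding the cyclase that makes ent-copalyl diphosphate, had 0.804, 1.30 and 1.66 RPKM at 24 HAI, against 0.201, 0.278 and 0.256 RPKM at 12 HAI (log2 1.93 ± 0.39, limma adjusted p = 0.0045). A second CPS gene (Glyma.19G157000, 0.59 ± 0.36) and the next enzyme, KS1 (Glyma.08G163900, 0.74 ± 0.22), did not pass. KO1 (Glyma.13G371400), the ent-kaurene oxidase that PBZ inhibits, had 17.9, 20.8 and 17.8 RPKM at 24 HAI, against 8.27, 10.2 and 10.01 RPKM at 12 HAI. The groups did not overlap and the limma adjusted p was 0.00084, but the change of 0.98 ± 0.13 was just under the size limit. The next oxidase, KAO2 (Glyma.15G135200), rose, with 5.47, 8.89 and 8.96 RPKM at 24 HAI, against 0.944, 2.61 and 2.93 RPKM at 12 HAI (log2 1.91 ± 0.41). The more abundant KAO1 (Glyma.09G029400) had 26.2, 26.7 and 25.7 RPKM at 24 HAI, against 26.2, 26.7 and 30.6 RPKM at 12 HAI, a change of -0.08 ± 0.11.

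Among the last enzymes of synthesis, the abundant genes stayed under the size limit. GA20ox3 (Glyma.06G155000) was weak and rose, with 0.804, 1.60 and 0.851 RPKM at 24 HAI, against 0.148, 0.0626 and 0 RPKM at 12 HAI (log2 2.83 ± 0.55), while the stronger GA20ox2 (Glyma.09G149200) changed by 0.60 ± 0.13. Without PBZ 24 HAI replicate 2, GA20ox3 was under the expression limit. GA3ox1 makes bioactive GA. The abundant copy, Glyma.13G361700, had 63.3, 64.9 and 59.7 RPKM at 24 HAI, against 31.1, 47.4 and 33.2 RPKM at 12 HAI, 0.77 ± 0.17 and under the size limit, and the other copy (Glyma.15G012100) changed by 0.30 ± 0.18.

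GA 2-oxidases, which inactivate GA, changed most within the pathway: of 7 tested 4 rose and 2 fell. Glyma.07G236100 had 1.60, 1.55 and 1.76 RPKM at 24 HAI, against 0, 0.101 and 0.129 RPKM at 12 HAI (log2 3.38 ± 0.46, limma adjusted p = 0.00089). Glyma.15G248400 had 2.71, 2.63 and 2.63 RPKM at 24 HAI, against 0.123, 0.685 and 0.287 RPKM at 12 HAI (log2 2.76 ± 0.45). The strongest at 24 HAI by group mean was GA2ox1 (Glyma.13G259400), with 5.54, 11.7 and 12.96 RPKM at 24 HAI, against 1.68, 2.53 and 2.81 RPKM at 12 HAI (log2 1.999 ± 0.34). GA2ox8 (Glyma.11G104800) rose by 1.12 ± 0.23. The strongest at 12 HAI by group mean was another member, Glyma.15G093900, which had 7.73, 3.42 and 6.14 RPKM at 24 HAI, against 9.87, 11.9 and 12.5 RPKM at 12 HAI (log2 -1.04 ± 0.28, limma adjusted p = 0.016). Its call was lost without PBZ 24 HAI replicate 2 (-0.71) and without PBZ 12 HAI replicate 3 (-0.98). GA2ox6 (Glyma.10G010700) fell to 0.348, 0.324 and 0.215 RPKM at 24 HAI, against 1.39, 2.73 and 1.94 RPKM at 12 HAI (log2 -2.39 ± 0.35), and Glyma.13G218200 did not pass, at -0.07 ± 0.23. In replicate 1 at 24 HAI Glyma.15G093900 was above GA2ox1.

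All 5 GID1 receptor genes were tested, and their b and c types lay on opposite sides of 0. GID1b1 (Glyma.02G151100) fell to 5.57, 5.06 and 4.91 RPKM at 24 HAI, against 15.0, 14.7 and 14.1 RPKM at 12 HAI (log2 -1.48 ± 0.11, limma adjusted p = 0.00017). GID1b2 (Glyma.10G022900) had 12.7, 10.3 and 12.2 RPKM at 24 HAI, against 18.3, 22.9 and 20.8 RPKM at 12 HAI (-0.81 ± 0.13), and GID1b3 (Glyma.03G148300) changed by -0.62 ± 0.13, both short of the size limit. GID1c1 (Glyma.10G158000) had 13.1, 12.9 and 12.6 RPKM at 24 HAI, against 7.14, 8.58 and 9.44 RPKM at 12 HAI (0.62 ± 0.13), and GID1c2 (Glyma.20G230600) changed by 0.53 ± 0.16, also short of it. In all 5 genes the values at 24 and 12 HAI did not overlap, as in 64.2% of all genes tested. The difference between the types was not tested. At 12 HAI the 3 GID1b genes were each above both GID1c genes in mean RPKM, a scale that corrects for length, whereas at 24 HAI GID1b1 was the lowest of the 5.

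Of 8 DELLA genes tested 3 rose and none fell, beside 17.1% rises and 9.51% falls over all genes tested. The most abundant, the RGL2 type Glyma.11G216500, had 35.5, 45.2 and 43.8 RPKM at 24 HAI, against 13.5, 22.9 and 18.1 RPKM at 12 HAI (log2 1.21 ± 0.20, limma adjusted p = 0.0021). A second RGL2 type, Glyma.18G040000, had 10.4, 12.9 and 12.2 RPKM at 24 HAI, against 2.97, 5.71 and 3.62 RPKM at 12 HAI (log2 1.56 ± 0.24), and the RGA type Glyma.06G213100 rose by 1.71 ± 0.26. The other 5 had changes between -0.90 (Glyma.10G190200) and 0.55 (Glyma.08G095800). Of the pair of GA transporter genes, Glyma.03G122500 rose by 1.15 ± 0.30, with 34.9, 29.7 and 32.3 RPKM at 24 HAI, against 8.499, 17.7 and 20.2 RPKM at 12 HAI, and Glyma.03G123000 did not pass (-0.42 ± 0.16). The call of the first was lost without PBZ 12 HAI replicate 1, where its change was 0.77.

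Of the 45 transcription factors that the study called, 19 were expressed in these groups, 12 rose and 1 fell, with a median of 1.79. DEL1 (Glyma.17G093600), an E2F-like factor of the cell cycle, led them, with 4.604, 7.41 and 6.21 RPKM at 24 HAI, against 0.159, 0.483 and 0.499 RPKM at 12 HAI (log2 3.76 ± 0.37). Of 5 MYB factors 4 rose, among them MYB61 (Glyma.10G142200, 3.38 ± 0.39), which acts in Arabidopsis on wall and vascular genes, and MYB86 (Glyma.05G040700, 3.35 ± 0.47). Of 10 bHLH factors listed 4 were tested, and all 4 rose. With the filter at a group mean of 5 RPKM, 8 factors of the whole table were tested, 4 rose and 1 fell, with a median of 0.86. The single fall was LOL2 (Glyma.07G196200), a zinc finger protein, with 31.0, 19.6 and 17.7 RPKM at 24 HAI, against 84.0, 27.3 and 61.2 RPKM at 12 HAI (log2 -1.23 ± 0.41, limma adjusted p = 0.034). It passed although the groups overlapped, since its lowest value at 12 HAI was under its highest at 24 HAI. The call was lost without PBZ 24 HAI replicate 2 (-1.15) or 3 (-1.07) and without PBZ 12 HAI replicate 1 (-0.89) or 3 (-1.11), and without PBZ 12 HAI replicate 1 the table had 13 rises and 0 falls.

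A set not picked by the study's calls was available on chromosome 1, where the annotation covers 1228 genes that the study did not call. Of these 1100 were tested, 195 rose and 101 fell (26.9% called, beside 26.6% of all genes tested), and their median change of 0.09 was close to that of all genes. Among their 78 tested transcription factors 13 rose and 6 fell, 24.4% called and close to the same background. The following genes of this set were chosen after their values were seen. The bHLH gene Glyma.01G129700 had 45.8, 52.4 and 45.8 RPKM at 24 HAI, against 8.35, 5.30 and 16.01 RPKM at 12 HAI (log2 2.41 ± 0.35), and the homeodomain-leucine zipper gene Glyma.01G044600 had 18.7, 22.2 and 24.7 RPKM at 24 HAI, against 3.87, 3.47 and 5.15 RPKM at 12 HAI (log2 2.37 ± 0.18). Both were separate between the times in every library, as were 64.2% of all genes tested. Of the listed factors, growth-regulating factor 2 (Glyma.01G148600) fell by 1.49 on the log2 scale. Falls outside that list of factors were that of a gene described as MADS box (Glyma.01G022800), with 15.1, 9.41 and 10.4 RPKM at 24 HAI, against 60.4, 62.5 and 53.9 RPKM at 12 HAI (log2 -2.36 ± 0.18), and that of one described as a PLATZ zinc finger (Glyma.01G096000, -2.19 ± 0.19). Another gene outside it, a PAR1 protein gene (Glyma.01G108700), had 19.0, 34.0 and 28.7 RPKM at 24 HAI, against 1.05, 1.49 and 3.53 RPKM at 12 HAI (log2 3.82 ± 0.42). A thaumatin-type gene (Glyma.01G165600), related to pathogenesis proteins, fell to 13.2, 4.28 and 4.604 RPKM at 24 HAI, against 83.3, 54.4 and 54.5 RPKM at 12 HAI (log2 -3.27 ± 0.42).

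The largest rises and falls among genes without a description were named only where the groups did not overlap. Glyma.10G057200 had 21.6, 29.1 and 31.5 RPKM at 24 HAI and was listed at 0 in all 12 HAI libraries, and Glyma.07G038800 had 98.7, 161 and 180 RPKM at 24 HAI, against 0.645, 1.96 and 0.838 RPKM at 12 HAI (log2 6.98 ± 0.39). Falls of this kind were Glyma.15G036500, with 0, 2.04 and 0 RPKM at 24 HAI, against 30.6, 56.04 and 28.7 RPKM at 12 HAI, and Glyma.08G302100, with 0, 1.72 and 5.60 RPKM at 24 HAI, against 111, 50.5 and 54.0 RPKM at 12 HAI. Values of at most 0.1 RPKM in all 3 libraries at 12 HAI and at least 1 RPKM in all 3 at 24 HAI were found in 64 genes, and the reverse in 18.

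In some of the largest described falls the mean at 12 HAI depended most on 1 library. The non-symbiotic haemoglobin Glyma.10G199000, of a family of plant globins that bind oxygen and nitric oxide, was listed at 0 in all 24 HAI libraries, against 229, 4.54 and 7.98 RPKM at 12 HAI. Glyma.20G191200 was at 0 in all 24 HAI libraries, against 240, 2.98 and 10.5 RPKM at 12 HAI, and Glyma.10G198800 was at 0 in all 24 HAI libraries, against 83.8, 1.56 and 3.07 RPKM at 12 HAI. The lipid-transfer and seed storage type Glyma.01G105800 was at 0 in all 24 HAI libraries, against 126, 1.30 and 41.4 RPKM at 12 HAI, and Glyma.01G105700 was at 0 in all 24 HAI libraries, against 27.4, 3.47 and 13.2 RPKM at 12 HAI. All 5 stayed past both limits without PBZ 12 HAI replicate 1, which was the highest 12 HAI library in each of them. PBZ 12 HAI replicate 1 held 17 genes of at least 5 RPKM that were over 10 times both other 12 HAI libraries. By the same measure replicate 2 held 10 such genes and replicate 3 held 13. Of the 17 in replicate 1, 14 were at most 0.1 RPKM in all 24 HAI libraries and 7 passed both limits. In 10 of the 17, replicate 1 led the 12 HAI controls as well. No fold is given against a group listed at 0.

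Both groups were rich in reads of a gene set called organelle-like here. The study listed 63 genes, nuclear copies of organelle genes and their like, that it had called higher in PBZ at 24 HAI, so their direction against control at that time was set by how they were chosen. Together they took 4.68%, 4.43% and 7.37% of summed RPKM in the 24 HAI libraries, against 7.42%, 6.43% and 3.85% at 12 HAI. The ranges of this share overlap. Gene by gene, 20 of the 63 rose and 2 fell, and 42 were higher and 21 lower at 24 HAI whether or not they passed, with a median of 0.44. A single gene, Glyma.01G163400, made up 1.77%, 1.68% and 2.95% of summed RPKM at 24 HAI, against 2.91%, 3.058% and 1.497% at 12 HAI. The 26 chloroplast-like members took 0.102%, 0.124% and 0.191% of summed RPKM at 24 HAI, against 0.0714%, 0.108% and 0.0535% at 12 HAI, ranges that overlap only by the lowest and highest libraries. The 17 mitochondrion-like members took 0.139%, 0.155% and 0.232% at 24 HAI, against 0.252%, 0.249% and 0.147% at 12 HAI. Most of the share of the 63 genes thus lay in members outside both sets.

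By the test, 14 of the 26 chloroplast-like genes rose and none fell, with a median of 1.34, while none of 17 mitochondrion-like genes passed (median -0.19). The rbcL-like gene Glyma.12G061600, for the large subunit of the carbon-fixing enzyme RuBisCO, had 62.0, 94.3 and 155 RPKM at 24 HAI, against 23.4, 22.9 and 23.8 RPKM at 12 HAI (log2 2.05 ± 0.29, limma adjusted p = 0.0011). The psaA/psaB-like gene Glyma.U016600, for a photosystem I core protein, had 17.1, 34.4 and 34.1 RPKM at 24 HAI, against 5.18, 7.67 and 3.74 RPKM at 12 HAI (log2 2.34 ± 0.34). The psbA-like gene Glyma.05G073600, for the photosystem II protein D1, had 35.2, 40.2 and 53.9 RPKM at 24 HAI, against 23.2, 17.4 and 10.8 RPKM at 12 HAI (log2 1.37 ± 0.28). Replicate 3 was the highest 24 HAI library in 25 of the 26 genes. None of the 26 was called when all 18 libraries set the spread in 1 fit, where the median was the same 1.34. The part of the organelle-like reads as a whole in these changes was not tested.

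Photosynthesis genes that are not organelle copies also appeared among the rises. PsbO (Glyma.01G180800), a nuclear-encoded protein of the oxygen-evolving complex, had 9.18, 18.3 and 15.2 RPKM at 24 HAI, against 1.04, 1.99 and 1.87 RPKM at 12 HAI (log2 3.04 ± 0.32). A light-harvesting protein gene (Glyma.01G115900) rose by 1.68 ± 0.29. In the whole list of photosystem genes, 5 of 12 rose and none fell, with a median of 1.20, and 3 of the 5 rises were organelle-like genes. Of 4 plastid ribosomal protein genes 1 rose (Glyma.10G179000, 1.39 ± 0.35), beside 17.1% of all genes tested. Its call was lost without PBZ 24 HAI replicate 3, at 0.98. Of 5 genes listed as cytosolic ribosomal proteins, Glyma.15G143200 fell to 248, 261 and 234 RPKM at 24 HAI, against 740, 539 and 464 RPKM at 12 HAI, and the 1 rise, Glyma.U009000, was itself an organelle-like copy.

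**Figure D4:**
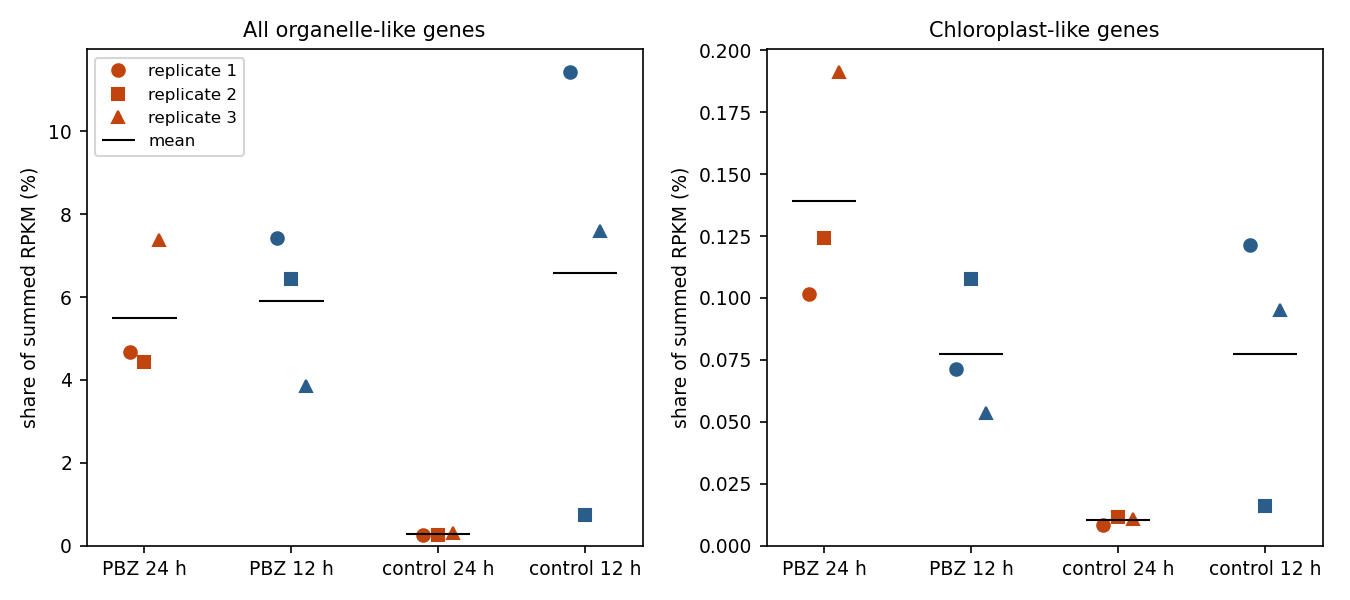
Share of summed RPKM (%) in each library taken by all 63 organelle-like genes (left) and by the 26 chloroplast-like ones (right), for PBZ 24 HAI, PBZ 12 HAI, control 24 HAI and control 12 HAI. Points are libraries, shapes mark the replicate and bars mark means. The PBZ groups overlap on the left, all control 24 HAI libraries lie at 0.308% or below, and control 12 HAI replicate 2 (0.732%) lies far under the other controls at 12 HAI (11.4% and 7.58%).

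The same interval without PBZ was close to this step over most genes. In the control libraries, which share no sample with the PBZ ones, 8727 of 31724 genes passed (27.5%), 5865 of them higher at 24 HAI. Across the 30932 genes tested in both, the 2 sets of changes had Pearson's r of 0.881, a description over genes that share libraries. Of the 8146 genes called under PBZ that could be tested in control, 8059 (98.9%) had the same sign there, 6549 (80.4%) were called in the same direction and 32 in the opposite one. LEA genes had 11 falls and 1 rise among 13 tested under PBZ, and the same counts among 14 tested in control. Heat shock genes had 16 falls and 0 rises among 21 under PBZ, and 16 falls and 1 rise among 20 in control. Other counts were less alike. The cell wall table had 20 rises and 2 falls among 28 under PBZ, and 27 rises and 0 falls among 31 in control. Photosystem genes had 5 rises and 0 falls among 12 under PBZ, and 2 rises and 5 falls among 10 in control. This list also holds organelle-like genes. Its members that the study had not called had 2 rises and 0 falls among 4 under PBZ, and 2 rises and 1 fall among 3 in control. The genes tested in each treatment were not all the same.

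The difference between the PBZ step and the control step was tested over the 12 libraries. Of 32287 genes 1 passed both limits (0.0031%), beside 3212 at an unadjusted p of at most 0.05 (9.95%). The gene was Glyma.16G093500, which has no description and had 13.1, 2.06 and 3.35 RPKM in PBZ at 24 HAI, against 0 in all 3 libraries at 12 HAI. In control it was at 0 in all 3 libraries at 24 HAI, against 8.45, 3.67 and 3.55 RPKM at 12 HAI. The limma adjusted p of the difference was 0.000421. No member of the gene groups passed. Medians below are over the genes tested in each treatment, which were not all the same. Median falls were -4.09 under PBZ and -2.82 in control for LEA genes, and -3.09 under PBZ and -2.51 in control for heat shock genes. The lowest limma adjusted p of the difference was 0.33 among LEA genes and 0.37 among heat shock genes. Cell wall genes had a median of 2.54 over 28 genes under PBZ and 3.46 over 31 in control. Of 35 in the test of the difference, 16 had an unadjusted p of at most 0.05, and the lowest limma adjusted p was 0.26. The study picked these genes for a difference between PBZ and control, so their unadjusted counts follow from how they were chosen. A p above the limit does not show that the steps were equal.

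Of the GA genes, 3 of 36 reached an unadjusted p of at most 0.05, beside 9.95% of all genes. Their counts were 11 rises and 3 falls in either treatment, among 32 tested under PBZ and 34 in control. Medians were 0.59 under PBZ and 0.46 in control. The brassinosteroid table had 3 rises among 8 tested under PBZ and none among 8 in control, where 1 gene fell. The lowest limma adjusted p of the difference among these genes was 0.32, so none passed. The study had called all 8 between PBZ and control. BR6OX2 (Glyma.19G033900) changed by 1.14 under PBZ and by 0.05 in control.

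The organelle-like genes stood apart between the steps. Chloroplast-like genes had a median of 1.34 under PBZ and -2.10 in control, where 19 of 26 fell, and mitochondrion-like genes had a median of -0.19 under PBZ and -3.19 in control, where all 17 fell. For rbcL-like Glyma.12G061600 the change was 2.05 under PBZ and -2.46 in control. Of the 63 genes 57 reached an unadjusted p of at most 0.05 for the difference, and none passed the limits (lowest limma adjusted p = 0.27). Control 12 HAI replicate 2 held 0.732% of its summed RPKM in these genes, against 11.4% and 7.58% in the other controls of that time. Without that library 92 genes passed the test of the difference, 88 of them higher under PBZ, and 48 of the 92 were organelle-like. The genes had been selected as higher in PBZ at 24 HAI, and a larger step under PBZ follows in part from that choice.

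**Figure D5:**
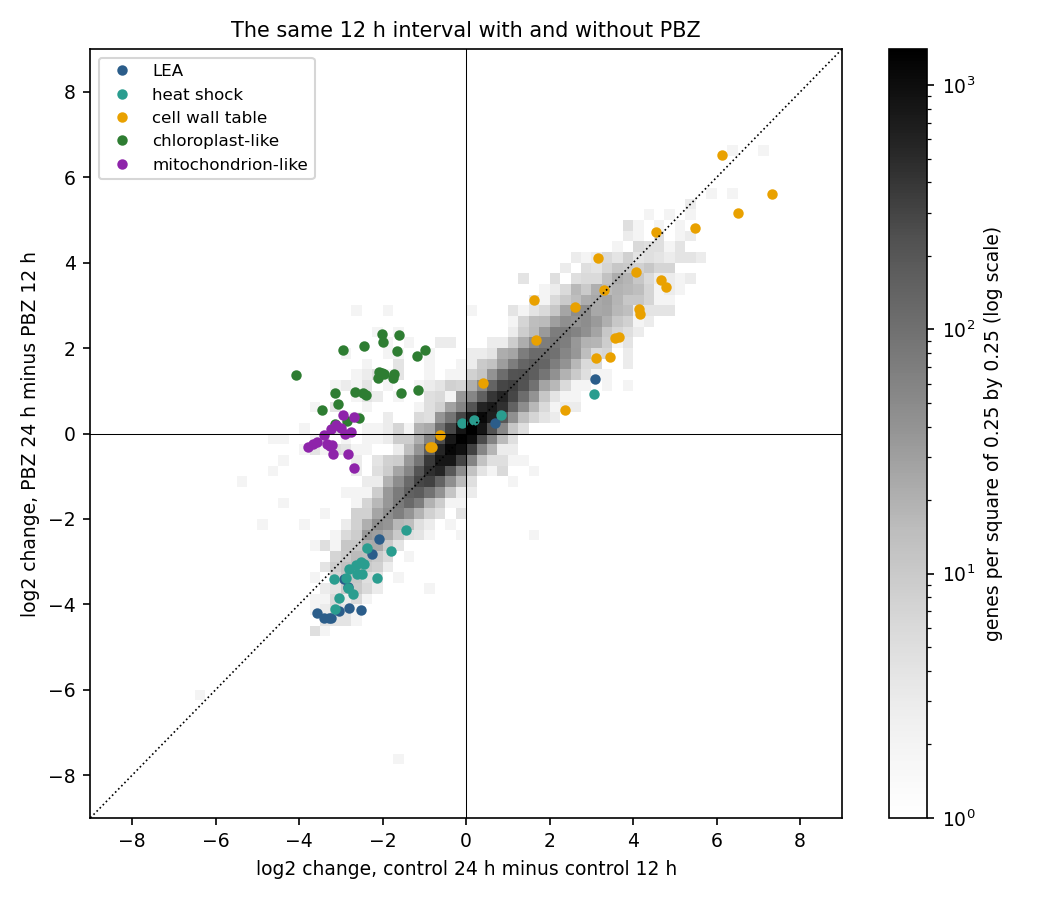
Log2 change between 12 and 24 HAI in PBZ axes (vertical axis) and in control axes (horizontal axis). Grey squares count genes on a log scale, coloured points are members of 5 gene groups and the dotted line marks equal changes. Most genes lie along the line (r = 0.881 over 30932 genes), while the chloroplast-like and mitochondrion-like genes lie above it on the left, with medians of 1.34 and -0.19 under PBZ, against -2.10 and -3.19 in control.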

How the data were processed

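The deposited values are RPKM for 56044 genes in each library, which the authors made from single-end reads of embryonic axes. Per the study's methods, rRNA reads were removed, Novoalign 3.06.05 placed the other reads on assembly Wm82.a2.v1, uniquely mapped reads were kept, and Cufflinks 2.1.1 computed RPKM with bias correction and a strand setting. The library kit does not mark strand, so a gene and an overlapping antisense gene cannot be told apart, and near-identical copies keep only the reads that distinguish them. No counts were used, and depth per library was read only as a ratio, by the step that 1 read makes in the values of low genes. All 18 columns were matched to samples by name, and 0 columns were left unmapped.

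From the RPKM values, log2(RPKM + 0.1) was compared between PBZ 24 HAI and PBZ 12 HAI with limma 3.58.1 (R 4.3.3), a trended empirical Bayes variance and Benjamini-Hochberg adjustment over every gene that reached a mean of 1 RPKM in either group. A call needed an adjusted p of 0.05 or less and a log2 change of at least 1. The control step was fitted in the same way, and the difference of the steps over 12 libraries as an interaction. The fit was tested on simulated data. Tables and figures were made with Python 3.11.15, numpy 2.4.6, pandas 2.3.3 and matplotlib 3.10.9. The libraries were separate biological replicates, and 3 against 3 sets the precision.

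The comparison, the gene groups and the naming rule were chosen with earlier results of these data known. Genes named are the 12 largest described rises and falls with a mean of at least 10 RPKM and no overlap between the groups, the 2 largest of each kind without a description, the tested genes of the study's GA table and at most 3 per gene group (the most abundant where none passed). Others are included as further examples of a group, as exceptions, or because the study's question concerns them, after their values were seen. A rule for genes with a difference between steps gave 0 genes. The identifiers matched 0 entries of the reference gene table used here, so descriptions come from the study's supplementary tables, and promoter motifs and sequences were not analysed here. The share of each gene list is given as a description, in place of a planned permutation test.

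The alternatives were other pseudocounts and filters, quantile and median-ratio scaling, organelle-like genes left out, all 18 libraries in 1 fit, the replicate number as a block, quality weights, no variance trend and each replicate left out. Leaving out genes with an exact 0, the shares without each library, and the gene group counts without replicate 1 of either group were added after seeing the data.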

Additional observations from a re-analysis of the deposited data

Results flagged for a closer look

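Glyma.16G093500, a gene without a description, changed differently between 12 and 24 HAI under PBZ than in control, by the test of the difference itself (limma adjusted p = 0.000421). It had 13.1, 2.06 and 3.35 RPKM in PBZ at 24 HAI, against 0 in each library at 12 HAI, and 0 in each control library at 24 HAI, against 8.45, 3.67 and 3.55 RPKM at 12 HAI. With all 3 libraries at 0 in 1 group of each treatment, and exact zeros found beside values of at least 5 RPKM within a group in 80 other genes at 12 HAI, these zeros are given as listed. The gene did not pass with a pseudocount of 1, where no gene did.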

How the results depend on the processing

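The count of 8384 genes kept its size within 1.5 times under all alternatives but a stricter filter, a mean of 5 RPKM in a group, where 21983 genes were tested and 4984 passed (2887 higher at 24 HAI). It was 5887 with a pseudocount of 1 and 7220 to 9061 when a replicate was left out. Scaling moved the split: 64.3% of calls were higher at 24 HAI, against 54.3% with quantile and 57.9% with median-ratio scaling. The difference of the steps rested on few genes: 1 passed, against 0 with a pseudocount of 1, 3 with 0.01, 5 with no filter on low values and 1 to 92 when a replicate was left out (92 without control 12 HAI replicate 2). Same-numbered PBZ libraries deviated together with r of 0.172, -0.054 and -0.051, so the numbers were not taken as pairs. The replicate block gave 8466 calls for the step and 1 for the difference, and no named gene lost its call under it.

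Of the 125 genes that the naming rule gave, 102 passed both limits, and 80 of these did so under each of the 18 settings in which they were tested, since some fell under a filter (83 of the 125 were tested at a mean of 5 RPKM). None of the 102 reversed. Among them, a replicate left out ended 12 calls and a pseudocount of 1 ended 13. Calls of other genes that a left-out replicate ended are given where the gene is described. Among GA genes, Glyma.15G093900 had -0.98 and -0.71 where its call was lost, and KO1 (Glyma.13G371400) passed at 1.02 to 1.04 without some libraries. Glyma.13G218200, not called, ranged from -0.28 to 0.10. With a pseudocount of 1, 14 cell wall genes rose and 2 fell, and 8 GA genes rose. The calls of the 14 chloroplast-like genes were lost with all 18 libraries in 1 fit. Depth limits the low genes: RPKM near 0.1 come from few reads, and no interval could be set without counts.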
